A study of Homo sapiens with 14 samples.

Results

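The adrenergic core transcription factors described here are 8 genes, PHOX2A, HAND1, HAND2, GATA2, GATA3, ISL1, TBX2 and TFAP2B, picked by name from the 19923 genes in the count tables. The choice used no rule on measured values, but it was made with earlier results of these data known. They were read in 14 RNA sequencing libraries of SK-N-BE2, a neuroblastoma line that the labels call MYCN-amplified, so every library below shares that line. In batch 1, cells labelled wild type received H2O, CoCl2 at 10 µM or CoCl2 at 50 µM. In batch 2, cells labelled WT stood beside cells labelled TET2KO 1, TET2KO 2 and TET2KO 3, with no treatment. Each of the 7 groups held 2 replicate libraries. The labels do not give the exposure time, how TET2 was targeted, or whether a knockout number is a clone. Nor do they say whether the replicates were separate cultures, so p-values measure the spread between these libraries, which may be technical.

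In sympathetic neuron and chromaffin cell development, a small set of transcription factors switches on noradrenaline synthesis, and many of them help to keep the others expressed. Neuroblastoma, a tumour of that lineage, often keeps this circuit running at large enhancers, a condition known as the adrenergic state, while a second, mesenchymal state uses other regulators. Cobalt chloride is widely used as a chemical stand-in for low oxygen because it stabilises hypoxia-inducible factors, and TET2 oxidises methylated cytosine in DNA in a reaction that needs iron and oxygen.

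The 8 factors come from 5 DNA-binding families, and GATA2 and GATA3 bind a short core spelled GATA. Of the members that changed at 50 µM CoCl2, 5 had a single RefSeq start, and for 4 of them the 250 bases before it (GRCh38.p14) are printed 5′ to 3′ on the gene's strand, with every GATA core in capitals (GATA, or TATC where the core lies on the other strand). The fifth, TFAP2B, is described but not printed, since its window runs into the first counted exon. HAND1 and ISL1 were lower at 50 µM and PHOX2A and HAND2 were higher.
HAND1, chr5:154478228-154478477, minus strand: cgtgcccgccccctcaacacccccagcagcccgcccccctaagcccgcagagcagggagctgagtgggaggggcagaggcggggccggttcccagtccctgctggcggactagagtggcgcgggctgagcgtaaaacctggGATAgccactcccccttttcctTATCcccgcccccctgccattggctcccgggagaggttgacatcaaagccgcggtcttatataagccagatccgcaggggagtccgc
ISL1, chr5:51383198-51383447, plus strand: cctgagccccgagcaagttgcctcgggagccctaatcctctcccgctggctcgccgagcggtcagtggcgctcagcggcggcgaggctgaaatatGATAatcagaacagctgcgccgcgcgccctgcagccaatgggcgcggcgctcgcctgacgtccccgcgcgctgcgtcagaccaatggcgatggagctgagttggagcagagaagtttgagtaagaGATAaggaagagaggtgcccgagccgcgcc
PHOX2A, chr11:72244177-72244426, minus strand: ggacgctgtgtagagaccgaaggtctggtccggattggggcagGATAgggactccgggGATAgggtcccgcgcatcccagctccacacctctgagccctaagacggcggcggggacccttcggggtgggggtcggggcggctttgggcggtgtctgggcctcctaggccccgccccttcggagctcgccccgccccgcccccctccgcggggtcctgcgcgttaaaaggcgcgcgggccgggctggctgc
HAND2, chr4:173530230-173530479, minus strand: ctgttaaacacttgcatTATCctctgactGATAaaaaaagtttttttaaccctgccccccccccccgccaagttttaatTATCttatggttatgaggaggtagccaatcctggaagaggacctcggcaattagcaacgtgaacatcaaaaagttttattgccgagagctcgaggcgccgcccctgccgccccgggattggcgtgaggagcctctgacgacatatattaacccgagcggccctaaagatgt

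All 5 windows, TFAP2B included, held the core, with 2 copies in each except HAND2, which had 3. Among all 35116 promoter windows of the same length, 45.6% held at least 1 copy. The core was thus common, and it was present before genes that rose and before genes that fell. The homeodomain core TAAT, read on both strands, was found 5 times in HAND2, 3 times in TFAP2B and 2 times in ISL1, and was not found in the HAND1 and PHOX2A windows (47.4% of all windows held it). The hypoxia response core ACGTG was found 1 time in HAND2 and in none of the other 4 (18.5% of all windows). CpG dinucleotides, the sites TET enzymes act on when methylated, numbered 5 in TFAP2B, 13 in HAND2, 16 in HAND1, 26 in PHOX2A and 27 in ISL1, against a median of 11. GATA2 had 2 listed starts, both without a GATA core, and GATA3 had 6, of which 2 held 1 core each. In all, 7 of the 8 members had an entry. The listed starts of PHOX2A and TFAP2B lie inside the gene models used for counting, which begin further upstream. The PHOX2A window overlaps none of its counted exons. A match is a string of letters and does not show that a factor binds there.

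The library totals ran from 31214128 to 39540111 counts (batch 1) and from 52095024 to 59263320 (batch 2, in which both reads of a pair were mostly counted). TET2 mRNA was not lower in any labelled knockout: its log2 fold change against WT was 0.21 (adjusted p 0.000664), 0.40 (adjusted p 3.85e-12) and 0.08 (adjusted p 0.301) for TET2KO 1, 2 and 3. Counts over whole genes do not show an edited transcript, so the groups are called labelled knockouts and their directions depend on those labels being right. Of the 8 marker genes used to check the adrenergic state, 7 were tested and clearly present, including TH and DBH, enzymes of noradrenaline synthesis. Leukocyte markers summed to at most 1.27 CPM and epithelial markers to at most 3.89 CPM in any library.

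All 8 members passed the filter on low counts in both batches. Levels below are CPM, counts scaled to a common library total within the batch, and levels of different genes are compared only per kilobase of counted exons. Per kilobase, PHOX2A, a homeodomain factor that activates the DBH gene, was first in every group, at 191 ± 2.61 CPM per kb in H2O and 219 ± 2.32 in WT (SD, n = 2). HAND2, a basic helix-loop-helix factor needed for the noradrenergic phenotype, was second in every group, at 178 ± 2.11 in H2O and 165 ± 3.39 in WT. In H2O the order then ran GATA3 (68.8 ± 0.442), TFAP2B (63.0 ± 0.201), GATA2 (55.6 ± 0.816), HAND1 (33.3 ± 0.755), ISL1 (19.5 ± 0.648) and TBX2 (4.88 ± 0.110). None of these neighbours overlapped in H2O. In WT the order from the third place was GATA2 (138 ± 1.29), GATA3 (54.3 ± 1.38), TFAP2B (50.3 ± 0.518), HAND1 (47.1 ± 0.0847), ISL1 (13.4 ± 0.504) and TBX2 (9.41 ± 0.0475), again with no overlap between neighbours. Neighbours did overlap at 2 places, ISL1 and TBX2 in TET2KO 1 and GATA3 and TFAP2B in TET2KO 3. TBX2 was last in 6 of the 7 groups, and in TET2KO 2 it stood above ISL1 (19.99 ± 0.956 against 15.0 ± 0.573).

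**Figure D1:**
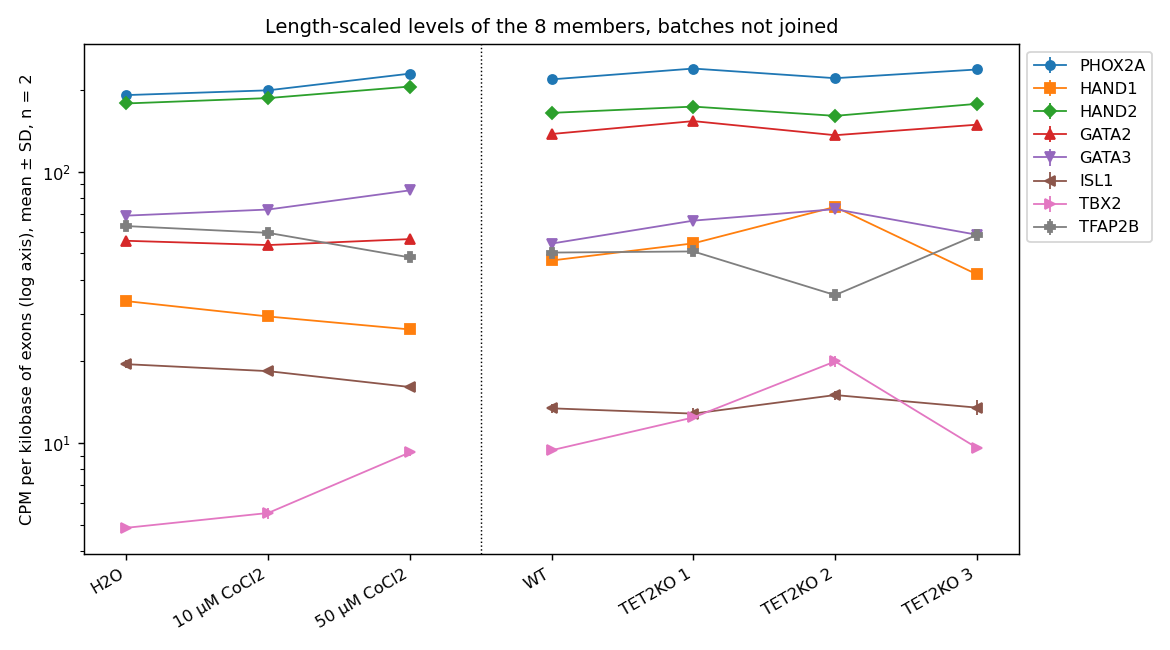
Mean CPM per kilobase of exons (log axis, bars are SD of 2 libraries) for the 8 members in the 7 groups, with the batches separated by a dotted line. PHOX2A and HAND2 lie at the top in every group, TFAP2B crosses below GATA2 at 50 µM CoCl2 (48.3 against 56.4), and TBX2 passes ISL1 only in TET2KO 2.

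The counting did not use strand, although the libraries are labelled strand-specific, so reads of overlapping genes on the opposite strand cannot be told apart from those of a member. HAND2 (chromosome 4, 173524969 to 173530229, minus strand, GRCh38 like all gene positions here) shares 867 of its 3601 exon bases (24.1%) with the non-coding HAND2-AS1. PHOX2A (chromosome 11, 72239077 to 72245664, minus strand) shares 71 exon bases (3.98%) with INPPL1, and TBX2 (chromosome 17, 61399843 to 61409466, plus strand) shares 28 (0.46%) with AC005746.2. The other members share no exon base with an annotated gene on the opposite strand. They are HAND1 (chromosome 5, 154474972 to 154478227, minus), GATA2 (chromosome 3, 128479427 to 128493201, minus), GATA3 (chromosome 10, 8045378 to 8075198, plus), ISL1 (chromosome 5, 51383448 to 51394730, plus) and TFAP2B (chromosome 6, 50818723 to 50847619, plus).

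The first comparison asked how these factors respond to cobalt. At 50 µM, 4 members rose (TBX2, GATA3, PHOX2A and HAND2), 3 fell (TFAP2B, HAND1 and ISL1) and GATA2 was not called. Calls were made at an adjusted p under 0.05 (edgeR, quasi-likelihood F-test, Benjamini-Hochberg over the 13636 genes tested). The share called was 7 of 8 members against 61.4% of all genes, so being called at this dose did not set the members apart. Their median log2 fold change was 0.11, against 0.00 for all genes, and no member changed 2-fold.

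TBX2, a T-box factor that mostly represses its targets, had the largest change. It was measured at 30.1 and 29.2 CPM in H2O, 34.8 and 32.5 CPM at 10 µM and 55.0 and 57.4 CPM at 50 µM, so both 50 µM libraries lay well above all the others. The rise at 50 µM was 0.92 on the log2 scale (SE 0.04, adjusted p 6.13e-50), or 1.90-fold, a change whose size exceeded that of 94.4% of genes tested. TFAP2B, an AP-2 factor of neural crest and sympathetic precursors, went the other way, from 389 and 387 CPM in H2O through 364 and 368 CPM at 10 µM to 298 and 296 CPM at 50 µM. The fall at 50 µM was -0.38 (SE 0.02, adjusted p 4.10e-46). All 3 groups were separate, but so were those of all 8 members, uncalled GATA2 included. Separation of 2 libraries from 2 thus carries little weight here and below, and the share of all genes so separated was not computed.

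The homeodomain members moved in opposite directions. PHOX2A was at 345 and 338 CPM in H2O, 357 and 354 CPM at 10 µM and 408 and 411 CPM at 50 µM, a rise of 0.26 (SE 0.02, adjusted p 4.62e-30) at the higher dose. ISL1, a LIM-homeodomain factor of sympathetic and motor neurons, was at 56.3 and 53.7 CPM in H2O, 51.8 and 51.9 CPM at 10 µM and 45.8 and 44.9 CPM at 50 µM. Its groups were ordered without overlap, and the log2 fold change at 50 µM was -0.28 (SE 0.04, adjusted p 3.61e-11).

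The HAND genes, which encode basic helix-loop-helix proteins that bind DNA with E-protein partners, also split. HAND2 was at 647 and 637 CPM in H2O, 668 and 676 CPM at 10 µM and 739 and 743 CPM at 50 µM, and rose by 0.21 (SE 0.02, adjusted p 1.51e-26) at 50 µM. HAND1 was at 57.6 and 55.8 CPM in H2O, 48.7 and 50.9 CPM at 10 µM and 45.2 and 44.0 CPM at 50 µM, which put 50 µM at -0.35 (SE 0.04, adjusted p 1.41e-15). No library of one dose reached into the range of another for either gene, as for every member.

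Of the zinc finger pair, GATA3, which sympathetic neurons need for TH and DBH expression, was at 235 and 233 CPM in H2O, 249 and 244 CPM at 10 µM and 289 and 290.1 CPM at 50 µM. It rose by 0.31 (SE 0.02, adjusted p 1.90e-32), with all 3 groups apart. GATA2, which acts in the same lineage and in blood progenitors, was at 251 and 246 CPM in H2O, 236 and 244 CPM at 10 µM and 254 and 252 CPM at 50 µM. Its log2 fold change at 50 µM was 0.02 (SE 0.02, adjusted p 0.389), although its groups were apart too.

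At 10 µM the changes were small, and 6 of 8 members were called against 22.7% of all genes. By size of change, the members ranked only from percentile 38.8 (GATA2) to 81.2 (HAND1) of the genes tested. PHOX2A (0.06, adjusted p 0.0103), HAND2 (0.07, adjusted p 0.000451), GATA3 (0.07, adjusted p 0.00287) and TBX2 (0.18, adjusted p 0.00126) rose on the log2 scale. HAND1 (-0.19, adjusted p 1.57e-05) and TFAP2B (-0.08, adjusted p 0.000114) fell. The values for GATA2 (-0.05, adjusted p 0.0511) and ISL1 (-0.08, adjusted p 0.0742) did not pass. The 6 called genes had the same direction at both doses, which share their H2O libraries. Most of these calls depended on the fit or on single libraries. A fit of all 14 libraries kept only HAND1 (adjusted p 0.0142), and DESeq2 did not call PHOX2A (adjusted p 0.0795) or TBX2 (adjusted p 0.0715). Without replicate 1 of 10 µM, PHOX2A (adjusted p 0.107), GATA3 (0.105) and TBX2 (0.0951) lost their calls. Without replicate 2 of 10 µM, PHOX2A (0.0636) and HAND2 (0.0538) did, and without replicate 2 of H2O, PHOX2A (0.209), HAND2 (0.0503) and GATA3 (0.0566) did.

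Between the doses, all 8 members differed, 5 higher and 3 lower at 50 µM, against 52.8% of all genes. The log2 difference was 0.74 for TBX2, 0.24 for GATA3, 0.20 for PHOX2A and 0.14 for HAND2, and -0.30 for TFAP2B, -0.20 for ISL1 and -0.16 for HAND1 (SE 0.02 to 0.04). For each of these 7 genes the step from 10 to 50 µM thus had the direction seen against H2O. GATA2 was 0.07 higher at 50 µM than at 10 µM (adjusted p 0.00168). That call was lost without replicate 1 of 10 µM (adjusted p 0.128) and in the fit of all 14 libraries (0.0617).

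**Figure D2:**
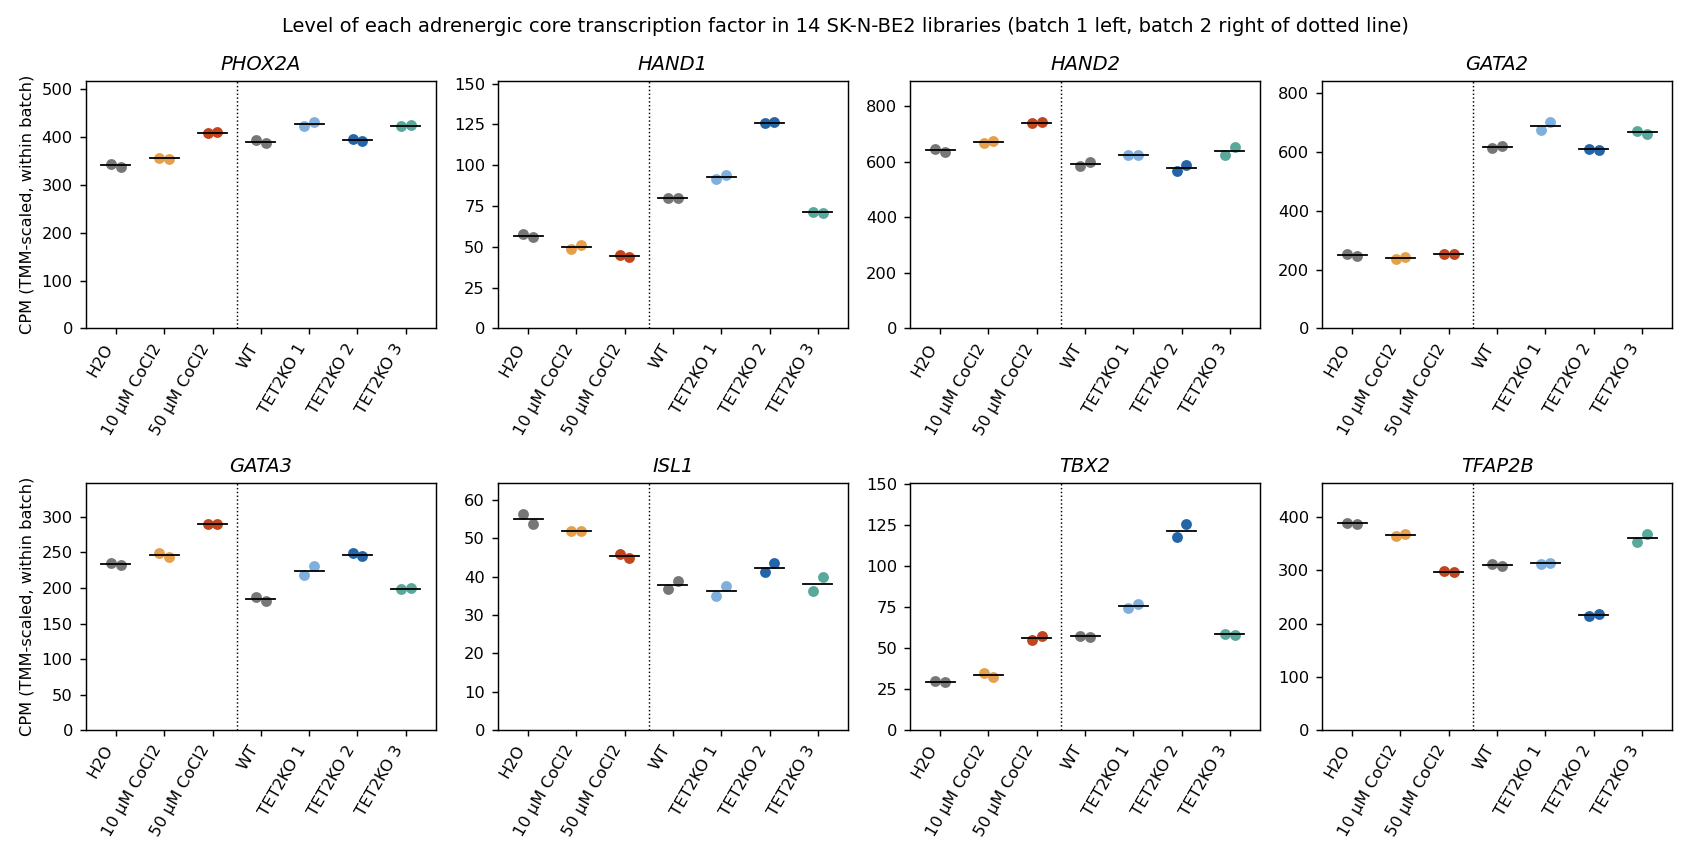
CPM of each member in the 14 libraries (points) with the group mean (bar), on axes that start at 0, batch 1 to the left of the dotted line and batch 2 to the right. TBX2 is highest at 50 µM CoCl2 in batch 1 and in TET2KO 2 in batch 2, while TFAP2B is lowest in the same groups (298 and 296 CPM, and 213 and 219 CPM).

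Other genes of the circuit were read from lists chosen by function. Of 18 other adrenergic and sympathoadrenal regulators, 17 were tested, and at 50 µM 3 rose and 10 fell, with a median log2 fold change of -0.14. Those that rose included TLX2 (0.64), a homeobox gene of the neural crest, and HEY1 (0.47). MYCN, the amplified oncogene of this line, rose by 0.09 at 10 µM (5231 to 5252 CPM in H2O, 5562 to 5577 CPM at 10 µM) and fell by 0.22 at 50 µM (4497 to 4500 CPM). At 10 µM, 6 of the 17 rose and 2 fell.

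Partners and inhibitors of the members, 20 genes all tested, held 5 that rose and 10 that fell at 50 µM (median -0.06), and 3 that rose and 5 that fell at 10 µM. The E proteins TCF12 (-0.29) and TCF4 (-0.22), with which HAND proteins pair, fell, as did LDB2 (-0.69), a bridging protein for LIM-homeodomain factors. Among 21 noradrenergic phenotype genes, 7 rose and 11 fell at 50 µM (median -0.10), and 6 rose and 6 fell at 10 µM. PRPH, a neuronal intermediate filament, rose by 0.58 and SCG2, a granule protein, by 0.36. DLK1, a non-canonical Notch ligand, fell by 0.78 and GCH1, which makes the cofactor of TH, by 0.83. These 3 lists had 76.5%, 75% and 85.7% of their tested genes called at 50 µM, against 61.4% of all genes, and 47.1%, 40% and 57.1% at 10 µM, against 22.7%.

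Among 15 same-family relatives, only 5 passed the filter in batch 1. TBX3 (0.55), TBX20 (0.45) and GATA4 (0.44) rose at 50 µM, and none of the 5 fell (60% called). TBX3, the closest relative of TBX2, was at 141 and 140.3 CPM in H2O and 203 and 208 CPM at 50 µM. For mesenchymal state regulators, 18 of 26 were tested, of which 4 rose and 4 fell at 50 µM, so 44.4% were called, below the 61.4% of all genes. FOSL2, an AP-1 subunit, rose by 0.68 and NOTCH1 by 1.00, while TWIST1 fell by 0.43. The summed level of 6 mesenchymal markers, nearly all of it VIM, was 1155 to 1161 CPM in H2O, 1182 to 1185 CPM at 10 µM and 1536 to 1553 CPM at 50 µM. The 4 endothelial markers summed to 1.35 to 1.61 CPM in H2O, 0.926 to 1.28 CPM at 10 µM and 0.544 to 0.784 CPM at 50 µM, where both tested genes were called lower. The 4 Schwann or glial markers summed to 4.94 to 5.32, 3.99 to 4.86 and 3.25 to 3.49 CPM, with 1 of 2 tested genes called lower at 50 µM. KDR was at 0 at 50 µM and PECAM1 at 10 µM. The part of these marker lists in the members' values was not tested. In bulk RNA, fewer cells of a type and less RNA per cell cannot be told apart.

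**Figure D3:**
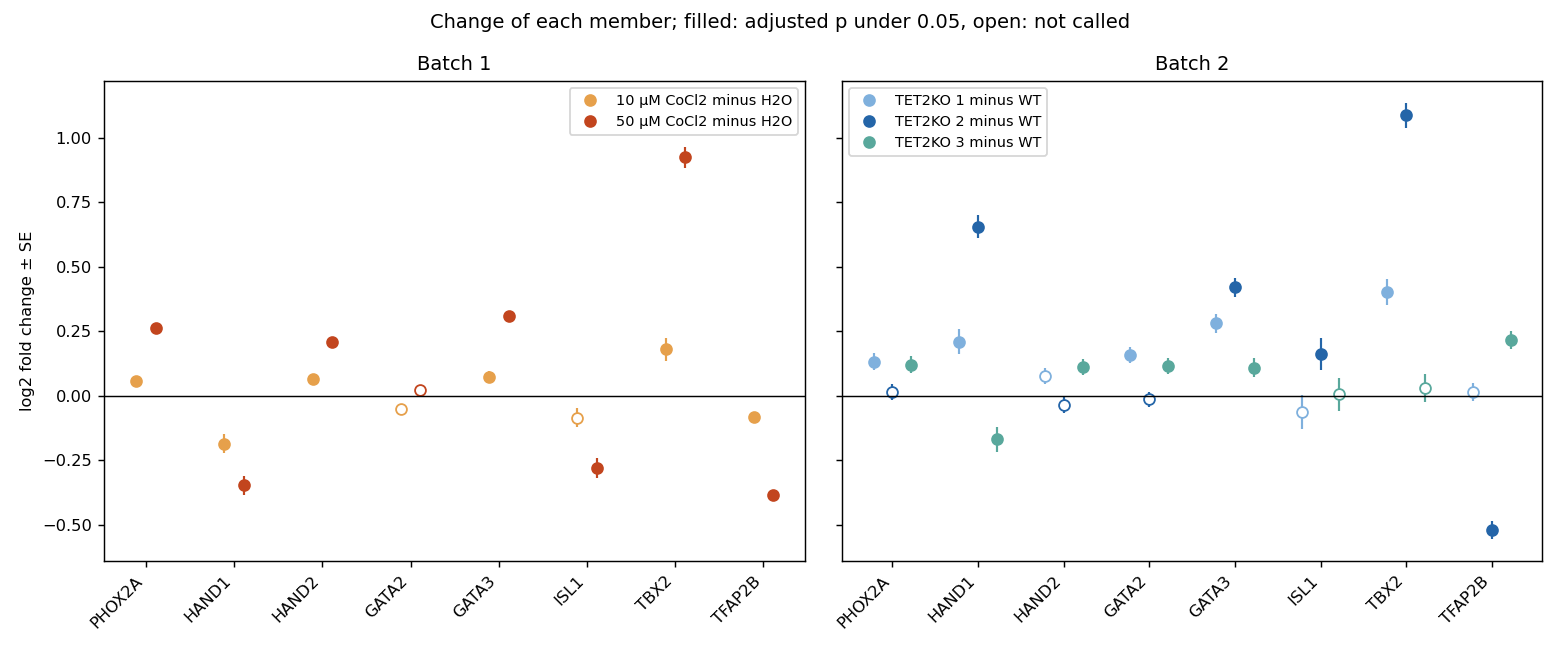
Log2 fold change (± SE) of each member against H2O in batch 1 and against WT in batch 2, filled where the adjusted p was under 0.05. TBX2 has the largest change at 50 µM CoCl2 (0.92) and in TET2KO 2 (1.09), and TFAP2B and HAND1 have filled points on both sides of 0 in batch 2.

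The second comparison set each labelled TET2 knockout against WT. The 3 labelled knockouts did not share one pattern: 5 members rose in TET2KO 1, 4 rose and 1 fell in TET2KO 2, and 5 rose and 1 fell in TET2KO 3. GATA3 was the only member called in the same direction in all 3. HAND1 and TFAP2B were called in opposite directions in different labelled knockouts. The share called was 5 of 8 members against 17.5% of 14061 genes in TET2KO 1, 5 of 8 against 26.3% in TET2KO 2, and 6 of 8 against 18.9% in TET2KO 3. By size of change, the members ranked from percentile 7.42 (TFAP2B) to 86.2 (TBX2) of the genes tested in TET2KO 1. The range was 6.89 (PHOX2A) to 96.6 (TBX2) in TET2KO 2 and 3.17 (ISL1) to 73.6 (TFAP2B) in TET2KO 3. The members' median log2 fold changes were 0.15, 0.09 and 0.11, with all-gene medians of 0.00.

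TBX2 was at 57.4 and 57.0 CPM in WT, 74.3 and 76.8 CPM in TET2KO 1, 118 and 126 CPM in TET2KO 2 and 58.7 and 58.2 CPM in TET2KO 3. The first 2 labelled knockouts stood above WT, by 0.40 (SE 0.05, adjusted p 1.55e-11) and 1.09 (SE 0.05, adjusted p 2.51e-56) on the log2 scale. The rise in TET2KO 2, 2.12-fold, was the only member change of at least 2-fold against a control. In TET2KO 3 the difference was 0.03 (SE 0.05, adjusted p 0.765).

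TFAP2B was at 312 and 308 CPM in WT, 312 and 313 CPM in TET2KO 1, 213 and 219 CPM in TET2KO 2 and 352 and 368 CPM in TET2KO 3. It thus fell in TET2KO 2 (-0.52, SE 0.03, adjusted p 6.20e-33) and rose in TET2KO 3 (0.22, SE 0.03, adjusted p 3.52e-08), while TET2KO 1 gave 0.01 (SE 0.03, adjusted p 0.838). HAND1 was highest in TET2KO 2 and lowest in TET2KO 3, at 79.9 and 80.2 CPM in WT, 91.3 and 93.8 CPM in TET2KO 1, 126.0 and 126.3 CPM in TET2KO 2 and 71.5 and 70.8 CPM in TET2KO 3. It rose by 0.21 (SE 0.05, adjusted p 0.00022) and 0.66 (SE 0.05, adjusted p 9.86e-32) in TET2KO 1 and 2, and its value in TET2KO 3 was -0.17 (SE 0.05, adjusted p 0.00574).

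GATA3 was at 188 and 181 CPM in WT, 218 and 231 CPM in TET2KO 1, 249 and 245 CPM in TET2KO 2 and 198 and 199 CPM in TET2KO 3. Every labelled knockout library lay above both WT libraries, though such separation also occurred without a call, as for GATA2 in TET2KO 2. The rises were 0.28 (SE 0.04, adjusted p 5.92e-11), 0.42 (SE 0.04, adjusted p 4.76e-22) and 0.11 (SE 0.04, adjusted p 0.0268). The last was lost without replicate 1 (adjusted p 0.0786) or replicate 2 (0.0773) of TET2KO 3 and without replicate 2 of WT (0.247).

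GATA2 and PHOX2A both rose in TET2KO 1 and TET2KO 3. GATA2 was at 612 and 620 CPM in WT, 673 and 701 CPM in TET2KO 1, 611 and 608 CPM in TET2KO 2 and 671 and 662 CPM in TET2KO 3. Its rises were 0.16 (SE 0.03, adjusted p 1.14e-05) and 0.11 (SE 0.03, adjusted p 0.00241). PHOX2A was at 393 and 387 CPM in WT, 424 and 431 CPM in TET2KO 1, 395 and 393 CPM in TET2KO 2 and 422 and 426 CPM in TET2KO 3, with rises of 0.13 (SE 0.03, adjusted p 0.000891) and 0.12 (SE 0.03, adjusted p 0.0026). In TET2KO 2 the log2 difference from WT was -0.01 for GATA2 (SE 0.03, adjusted p 0.783) and 0.01 for PHOX2A (SE 0.03, adjusted p 0.797).

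HAND2 and ISL1 were each called in 1 labelled knockout. HAND2 was at 584 and 601 CPM in WT, 625 CPM in both TET2KO 1 libraries, 567 and 589 CPM in TET2KO 2 and 626 and 654 CPM in TET2KO 3. Only TET2KO 3 was called (0.11, SE 0.03, adjusted p 0.00405), and not without its replicate 2 (adjusted p 0.105) or without replicate 1 of WT (0.0967). ISL1 was at 36.8 and 38.8 CPM in WT, 34.9 and 37.5 CPM in TET2KO 1, 41.2 and 43.5 CPM in TET2KO 2 and 36.3 and 39.8 CPM in TET2KO 3. Only TET2KO 2 was called (0.16, SE 0.06, adjusted p 0.0406), a call that DESeq2 did not make (adjusted p 0.0959). It was lost without replicate 2 of TET2KO 1 (0.0526), replicate 1 (0.0582) or 2 (0.305) of TET2KO 2, or replicate 1 (0.290) or 2 (0.0638) of WT.

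Tested directly in one F-test, all 8 members differed among the 3 labelled knockouts, as did 37.6% of all genes. The gap between the highest and the lowest labelled knockout was 1.06 on the log2 scale for TBX2 (adjusted p 5.43e-56), 0.82 for HAND1 (5.07e-42) and 0.74 for TFAP2B (7.25e-53). It was 0.31 for GATA3 (5.63e-13), and from 0.12 to 0.22 for PHOX2A, HAND2, GATA2 and ISL1. The calls of ISL1, HAND2 and PHOX2A each hung on single libraries: ISL1 was lost without replicate 1 of TET2KO 1 (adjusted p 0.0643), HAND2 without replicate 1 of TET2KO 2 (0.0516), and PHOX2A and ISL1 without replicate 2 of TET2KO 2 (0.0645 and 0.159).

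TET2KO 2 differed from each of the other labelled knockouts in every member. It differed from TET2KO 1 in all 8 members (4 higher, 4 lower, against 26.5% of all genes) and from TET2KO 3 in all 8 (34.2% of all genes). TET2KO 3 differed from TET2KO 1 in 4 members, against 8.3% of all genes, with HAND1 (-0.38), TBX2 (-0.37) and GATA3 (-0.17) lower and TFAP2B (0.20) higher. Against both other labelled knockouts, TET2KO 2 had higher HAND1, GATA3, ISL1 and TBX2 and lower PHOX2A, HAND2, GATA2 and TFAP2B. Among these pairwise calls, that of GATA3 between TET2KO 2 and 1 was lost without replicate 1 of TET2KO 1 (adjusted p 0.124), and that between TET2KO 3 and 1 without replicate 2 of TET2KO 1 (0.0792). HAND2 between TET2KO 2 and 1 was lost without replicate 1 of TET2KO 2 (0.137), and PHOX2A between TET2KO 3 and 2 without replicate 2 of TET2KO 2 (0.0586). ISL1 between TET2KO 2 and 1 was lost without replicate 1 of TET2KO 1 (0.0997) or replicate 2 of TET2KO 2 (0.0840). Between TET2KO 3 and 2, the ISL1 call was lost in DESeq2 (0.112) and without any 1 of 7 of the 8 libraries (0.0509 to 0.495), the exception being replicate 2 of TET2KO 3.

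Several other measures moved with these groups. MYCN was at 4600 to 4678 CPM in WT, 4548 to 4594 CPM in TET2KO 1, 2815 to 2837 CPM in TET2KO 2 and 4700 to 4715 CPM in TET2KO 3, lowest in TET2KO 2 (-0.72 against WT, adjusted p 9.33e-71). The summed level of the 6 mesenchymal markers was 1373 to 1397 CPM in WT, 1003 to 1032 CPM in TET2KO 1, 1082 to 1105 CPM in TET2KO 2 and 895 to 911 CPM in TET2KO 3, with PRRX1 at 0 in TET2KO 1 and 3. The 4 endothelial markers summed to 11.2 to 11.7 CPM in WT and to 1.31 to 4.16 CPM over the labelled knockouts, and the 4 Schwann or glial markers to 11.1 to 11.9 CPM in WT and 5.02 to 8.18 CPM. The 13 mitochondrial genes took 2.6% to 2.65% of counts in WT, 2.03% to 2.05% in TET2KO 1, 1.71% in both TET2KO 2 libraries and 3.11% to 3.17% in TET2KO 3, and had no counts in batch 1. The part of any of these in the members' values was not tested.

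Of the 17 other adrenergic regulators tested, 5 rose and none fell in TET2KO 1, 5 rose and 6 fell in TET2KO 2, and 5 rose and 1 fell in TET2KO 3. The shares called were 29.4%, 64.7% and 35.3%, against 17.5%, 26.3% and 18.9% of all genes, and the medians were 0.04, 0.02 and 0.05. TLX2 rose in all 3, by 0.39, 0.47 and 0.28. SOX4 rose in TET2KO 1 (0.24) and TET2KO 3 (0.18), and DACH1 fell by 0.37 in TET2KO 2.

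Of the 20 partners and inhibitors, 1 rose and 3 fell in TET2KO 1, 3 rose and 7 fell in TET2KO 2, and 2 rose and 6 fell in TET2KO 3. The shares called were 20%, near the 17.5% of all genes, then 50% and 40%. Among the 21 noradrenergic phenotype genes, 11 rose and 5 fell in TET2KO 1, 4 rose and 11 fell in TET2KO 2, and 7 rose and 5 fell in TET2KO 3 (76.2%, 71.4% and 57.1% called). NPY, a co-transmitter of sympathetic neurons, was at 89.8 and 91.7 CPM in WT and 183 CPM in both TET2KO 2 libraries (1.01 on the log2 scale, adjusted p 2.02e-59). SLC6A2, the noradrenaline transporter, rose by 0.29 in TET2KO 1 and 0.35 in TET2KO 3, and CHGB, a granule protein, fell by 0.38 in TET2KO 1 and 0.37 in TET2KO 2.

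Only 6 of the 15 relatives were tested in batch 2, of which 2, 3 and 1 rose in TET2KO 1, 2 and 3 and none fell (33.3%, 50% and 16.7% called). The 3 in TET2KO 2 include GATA5, which was near the detection limit and is given no weight. TBX3 rose in all 3, by 0.46, 0.31 and 0.19, and TBX20 rose in TET2KO 1 (0.35) and TET2KO 2 (0.71). The mesenchymal state regulators, 21 of 26 tested, showed 2 rises and 8 falls in TET2KO 1, 1 rise and 8 falls in TET2KO 2, and 2 rises and 11 falls in TET2KO 3. The shares called were 47.6%, 42.9% and 61.9%, and the medians were -0.32, -0.30 and -0.50. NOTCH1 was lower in all 3 (-1.53, -1.49 and -1.80).

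The batches share no library, so the members' responses to cobalt and their values in the labelled knockouts can be set side by side. The number of members called both at 50 µM CoCl2 and in TET2KO 2 was 5, of which GATA3, TBX2 and TFAP2B had the same direction and HAND1 and ISL1 the opposite one. Of the 13373 genes tested in both batches, 19.9% were called in both comparisons, and 75.9% of those had the same direction, so the 3 of 5 members were no larger a share. TBX2 had 0.92 at 50 µM and 1.09 in TET2KO 2, GATA3 0.31 and 0.42, and TFAP2B -0.38 and -0.52. HAND1 had -0.35 at 50 µM and 0.66 in TET2KO 2, and ISL1 had -0.28 and 0.16. In TET2KO 1, 4 members were called in both comparisons, PHOX2A, GATA3 and TBX2 in the same direction and HAND1 in the opposite one, against 12.8% of all genes called in both and 56.8% of those in the same direction. In TET2KO 3, 5 members were called in both, PHOX2A, HAND2, GATA3 and HAND1 in the same direction and TFAP2B in the opposite one, against 13.9% and 47.5%.

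**Figure D4:**
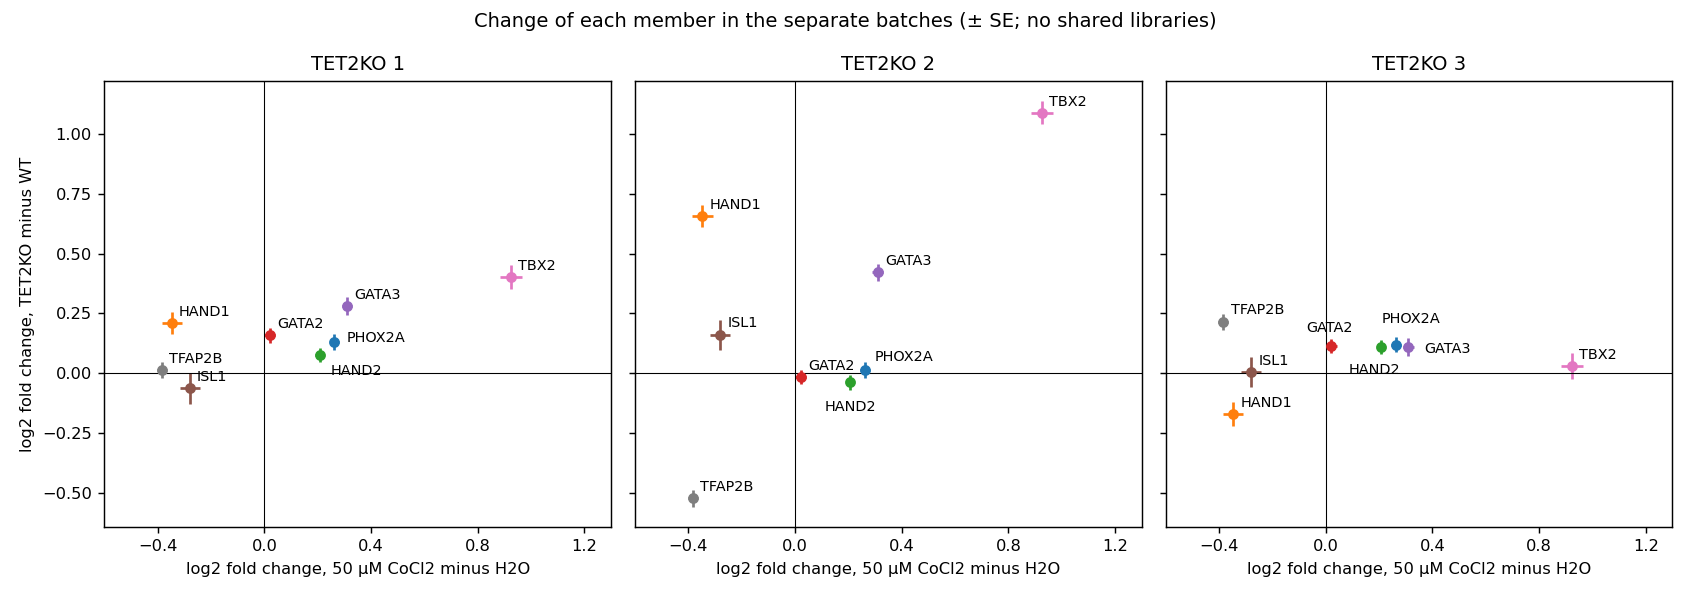
Log2 fold change of each member at 50 µM CoCl2 against H2O (horizontal) and in each labelled TET2 knockout against WT (vertical), with SE bars. In the TET2KO 2 panel TBX2 lies far to the upper right (0.92 and 1.09) and TFAP2B to the lower left (-0.38 and -0.52), while HAND1 lies at the upper left (-0.35 and 0.66).

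The controls of the batches were themselves unlike. WT over H2O gave ratios of mean CPM of 2.47 for GATA2, 1.93 for TBX2, 1.41 for HAND1, 1.14 for PHOX2A, 0.923 for HAND2, 0.799 for TFAP2B, 0.789 for GATA3 and 0.687 for ISL1. The GATA2 and TBX2 ratios were larger than any response of those genes within batch 1. In these ratios the batch and the culture cannot be told apart, and batch 2 was scaled and counted separately.

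For each member, the genes most like it were found among 13372 others by Pearson's r of log2 CPM over the 14 libraries after each batch mean was removed. These libraries fall into 7 groups, so r mostly reflects group means, and no p is given. TBX2 was most like ENC1 (r = 0.99) and UNKL (0.98), TFAP2B most like RFLNB and EMILIN1 (0.98 each), and PHOX2A most like LIX1 and CELF2 (0.98 each). GATA3 was most like DOK4 and CHRM1 (0.97 each), HAND1 most like EDEM3 (0.96) and RND3 (0.95), and GATA2 most like FOXRED2 and LRRC55 (0.95 each). HAND2 had RPS19 (0.94) among the 2 most like it, and ISL1 was most like UPF1 and ESF1 (0.93 each). No member was among the 2 genes most like another, which says little with 13372 candidates. Between members, r was 0.95 for GATA3 and TBX2, 0.93 for PHOX2A and HAND2 and -0.93 for TBX2 and TFAP2B. Of 28 member pairs, 21 had an absolute r of at least 0.9 in batch 1 and 5 in batch 2. The sign of r differed between the batches in 14 of the 28. Neither share was computed over all gene pairs, and r within a batch rests on few groups. These counts are therefore not read as a result about the members.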

How the data were processed

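Per the file headers, the authors made the deposited counts with featureCounts, version 1.5.3 in batch 1 and 2.0.5 in batch 2, over exons of GENCODE release 33 protein-coding genes (GRCh38), with the paired-end option and no strand option. Among counts of 1 to 10, 39.0% to 42.3% were even in batch 1 and 77.3% to 80.5% in batch 2, so batch 2 counts are mostly reads, 2 to a fragment. The submitters' processing notes name Trimmomatic 0.36, STAR 2.6.1d and Subread 1.5.3, and the labels' protocols give oligo-dT libraries.

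Each batch was fitted on its own in R 4.3.3 with edgeR 4.0.16: low-count filter by group, TMM scaling, 1 coefficient per group, robust quasi-likelihood F-test, Benjamini-Hochberg adjustment over 13636 genes (batch 1) or 14061 genes (batch 2), and a call at an adjusted p under 0.05. In batch 1 the estimated dispersion (7.66e-05) was raised to just above 1e-04, since edgeR's deviance is inexact below that. The standard error (SE) was obtained from each log2 fold change and its F statistic. CPM uses the TMM-scaled totals. Shares of all genes called were taken over genes of every level that passed the filter and were not matched to the members' counts. A share called is therefore not a measure of the size of change. In batch 1, replicates differed by slightly more than counting noise by chi-square (1.23 to 1.465 per gene, leaving out genes whose counts summed to under 20). The batch 2 values, 3.86 to 5.52, cannot be read against counting noise, since counting both reads of a fragment raises them. Replicates were counted separately. The fits were tested on simulated counts with known changes. Of 50 genes changed 1.1-fold, 37 were recovered for 50 µM against H2O and 7 for TET2KO 2 against WT. At 1.25-fold, 49 and 47 of 50 were recovered. The simulation changed few genes, so its adjusted p was harder to pass than in the data, where 26.3% were called in TET2KO 2. The recovered counts thus do not describe the real fits at small changes. In TET2KO 3, PHOX2A (1.087-fold) and GATA2 (1.083-fold) were called, whereas HAND2 in TET2KO 1 (1.055-fold) was not. A member not called in batch 2 may still have changed by a small amount.

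The members, the lists and the rules were chosen with earlier results of these data known, so none is independent evidence. All 8 members are named throughout, at most 4 genes per list and comparison (smallest adjusted p), and the 2 genes most like each member. A few list genes are followed into comparisons where they ranked lower, and the relatives given in the closing section were chosen after their values were seen. Alternatives were RLE and upper-quartile scaling, DESeq2 1.42.0, the legacy quasi-likelihood method, no filter, only the groups compared, a replicate block, batch 2 counts divided by 2, all 14 libraries in 1 fit, and each library left out. Overlaps with non-coding genes come from GENCODE release 29, and promoters from RefSeq GRCh38.p14. Gene positions are those of the count tables. A few genes of these lists are not reported here.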

Additional observations from a re-analysis of the deposited data

Results flagged for a closer look

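The difference among the 3 labelled TET2 knockouts was tested directly for each member (edgeR, 1 F-test over the 3 groups), and all 8 members passed it, as did 37.6% of all genes. The gap between the highest and lowest labelled knockout on the log2 scale was 1.06 for TBX2 (adjusted p 5.43e-56), 0.74 for TFAP2B (7.25e-53), 0.82 for HAND1 (5.07e-42) and 0.31 for GATA3 (5.63e-13). It was 0.17 for GATA2 (1.18e-06), 0.15 for HAND2 (5.67e-05), 0.12 for PHOX2A (0.00201) and 0.22 for ISL1 (0.00572). For TBX2, HAND1 and GATA3 the highest group was TET2KO 2 and the lowest TET2KO 3, and for TFAP2B the reverse held. Groups of 2 libraries were too small to look for single outlying libraries.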

How the results depend on the processing

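Over all alternatives, 1152 values of single members were recomputed: 1100 kept their side of the threshold (236 of them uncalled both ways, 3 of these with the other sign), 42 lost the call, 10 gained one and 0 called values changed direction. At 10 µM CoCl2 the fit of all 14 libraries called 796 genes and 1 member and DESeq2 called 1056 genes, against 3098 genes and 6 members. Between the doses these fits called 4678 and 4745 genes, against 7198. For TET2KO 3 against TET2KO 1 the fit of all 14 libraries called 2029 genes, against 1167. With 1 library left out (a lone library being assumed to vary like the other groups), the genes called ranged from 1860 (without replicate 2 of 10 µM) to 3292 at 10 µM, where replicate 1 of H2O gave 2063. For TET2KO 1 against WT the range was 1375 (without its replicate 2) to 2586, and without replicate 1 of WT it was 1619. For TET2KO 2 it was 2406 (without its replicate 1) to 3766. For TET2KO 3 it was 1566 (without its replicate 1) to 2615, and without replicate 1 of WT it was 1616. For TET2KO 3 against TET2KO 1 it was 564 (without replicate 2 of TET2KO 1) to 1184, with 621 without replicate 1 of TET2KO 1 and 687 without replicate 1 of TET2KO 3. The members called at 10 µM ranged from 3 (without replicate 1 of 10 µM) to 7. Calls gained were those of GATA2 at 10 µM under RLE scaling (adjusted p 0.0482), under a fit of only the groups compared (0.0297) and without 4 single libraries, of ISL1 at 10 µM without replicate 2 of H2O (0.0421), and of HAND2 in TET2KO 1 in the fit of all 14 libraries (0.00895) and without either TET2KO 3 library (0.0448 or 0.0449). The cause was not tested.

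Same-numbered replicates did not deviate together (correlations -0.07 to 0.03 across genes), so the numbers do not pair the libraries. With a replicate block, 2969 genes were called at 10 µM, 8303 at 50 µM, 7113 between the doses, 2228, 3500 and 2458 in TET2KO 1, 2 and 3 against WT, 5054 among them, 3567 for TET2KO 2 against 1, 984 for 3 against 1 and 4587 for 3 against 2, and the number of members called was the same as without it in every comparison.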

Other observations

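Among the relatives of the members, GATA5 was near the detection limit everywhere. It was at 0.0364 and 0.0713 CPM in WT (2 and 4 counts) and 0.287 and 0.289 CPM in TET2KO 2 (16 counts in each), its highest group. It did not pass the filter in batch 1. A gene this low can pass the filter through its highest group alone, so its call in TET2KO 2 is given no weight. GATA4, by contrast, was expressed at 58.4 to 79.4 CPM over the group means of batch 1 and 74.9 to 80.3 CPM over those of batch 2. TBX5 was at 0 in all 14 libraries. The AP-2 relatives TFAP2A, TFAP2C and TFAP2D stayed under 0.3 CPM in every group mean, so TFAP2B was the AP-2 gene with the most counts, and the group means of TFAP2E reached 0.50 CPM at most.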
